A study of Penicillium oxalicum with 12 samples.

Results

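Genes described as tryptophan-degrading enzymes were examined in the filamentous fungus Penicillium oxalicum, a producer of plant cell wall degrading enzymes. They were PDE_05885 and PDE_05907, both described as indoleamine 2,3-dioxygenase, and PDE_05889, described as tryptophanase. These are 3 of the 9931 genes in the deposited expression table. They were picked by locus identifier with their values in these libraries already known, so their levels are given as a description, with no test. The enzyme names are the KEGG descriptions in the table, and enzyme activity was not measured.

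RNA came from mycelia of 4 strains with 3 libraries each, 12 in all. WT was the wild type strain 114-2. DlaeA lacked laeA, which in related fungi encodes a regulator of secondary metabolism and development. In H2BK123A and H2BK131A the lysine at the numbered position of histone H2B was replaced by alanine. All 4 strains had the same growth: a pre-culture of 22 h from conidia at 30 °C on 2% glucose, then 24 h of the washed mycelia in Mandel's medium, again on 2% glucose. How the mutants were made, how many clones stand for each, and whether the libraries of a strain are separate cultures is not stated in the labels. Errors and p-values therefore cover the scatter among these libraries alone, and that scatter may be technical.

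Fungi can break tryptophan down along several routes. Indoleamine 2,3-dioxygenase opens the indole ring of tryptophan and so starts the kynurenine route, whose later steps give anthranilate and, through 3-hydroxyanthranilate, the precursor of NAD. Tryptophanase, known mainly from bacteria, is a pyridoxal phosphate enzyme that splits tryptophan into indole, pyruvate and ammonia. Fungal genomes often hold several indoleamine 2,3-dioxygenase genes.

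Values are FPKM, the deposited unit, which divides the fragments of a gene by transcript length and by the mapped total of the library. The library protocol in the labels yields short tags beside CATG sites, whose number does not scale with transcript length, so the same gene can be compared between libraries, whereas an order between genes rests on the deposited length scaling. The total number of reads per library is not known from the table, and the FPKM sums lay between 709483.7 and 764698.6. The number of genes listed at 0 was 157 to 284 per library. PDE_00584, taken as the laeA locus from knowledge of this fungus and not from the table's descriptions, was at 0.0533 ± 0.0551 FPKM in DlaeA and 35.6 ± 2.09 in WT (SD, n = 3). PDE_01489, described as histone H2B, was at 1107.3 ± 75.5 FPKM in WT, 953 ± 55.0 in H2BK123A and 1092.1 ± 30.1 in H2BK131A. A changed codon cannot be seen in such values. WT 2 stood apart from the other WT libraries in all of the tryptophan genes, and over all genes the replicate SD of log2 values had a median of 0.223 in WT and of 0.111 to 0.124 in the mutants.

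PDE_05885 was highly expressed in WT and nearly absent from DlaeA. Its FPKM was 1073.99, 437.25 and 809.98 in WT 1, 2 and 3. In DlaeA it was 0.20, 0.39 and 0.05. The H2B mutants lay between these extremes, with 242.10, 256.92 and 225.24 in H2BK123A and 100.47, 93.41 and 88.52 in H2BK131A. Every WT library was above every library of the mutants, and the strains followed the order WT, H2BK123A, H2BK131A, DlaeA without overlap between neighbours in that order. The means were 774 ± 320, 241 ± 15.9, 94.1 ± 6.01 and 0.213 ± 0.17 (SD, n = 3 each). Ranked by FPKM this gene was number 125 of 9931 in WT, 443 in H2BK123A, 1470 in H2BK131A and 9520 in DlaeA. The WT mean was 3.2 times that of H2BK123A and 8.22 times that of H2BK131A. On the scale of log2(FPKM + 1) the difference from WT was -9.23 ± 0.25 in DlaeA, -1.58 ± 0.25 in H2BK123A and -2.93 ± 0.25 in H2BK131A (SE from the limma fit over all genes). At the DlaeA level the added 1 sets much of the size of that difference, which ranged from -11.34 to -6.17 with added constants of 0.1 and 10.

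The tryptophanase gene PDE_05889 followed the same order of strains at a higher level. WT 1, 2 and 3 gave 2010.24, 889.27 and 1524.39 FPKM. The DlaeA libraries gave 0.40, 0.55 and 0.10. H2BK123A was at 405.94, 410.38 and 386.58 FPKM and H2BK131A at 140.11, 157.58 and 140.48. Again no libraries of neighbouring strains in the order overlapped, and the spread within each H2B mutant was small, with coefficients of variation of 3.16% and 6.83% against 38.1% in WT. The means were 1475 ± 562 in WT, 401 ± 12.7 in H2BK123A, 146 ± 9.98 in H2BK131A and 0.35 ± 0.229 in DlaeA (SD, n = 3 each). The gene was number 61 of 9931 in WT and number 9384 in DlaeA. Differences from WT on the log2(FPKM + 1) scale were -10.03 ± 0.24 in DlaeA, -1.80 ± 0.24 in H2BK123A and -3.25 ± 0.24 in H2BK131A (SE).

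The ratio of the tryptophanase gene to PDE_05885 varied little while both levels changed several-fold. It was 1.87, 2.03 and 1.88 in WT 1, 2 and 3, although WT 2 held less than the other WT libraries of both genes. In H2BK123A it was 1.68, 1.60 and 1.72, and in H2BK131A 1.39, 1.69 and 1.59. The ratio was thus lower in every library of the H2B mutants than in every WT library. In DlaeA both genes were too low for a ratio to be read.

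PDE_05907, which carries the same description as PDE_05885, had another order of strains. It was at 119.05, 385.01 and 85.72 FPKM in WT 1, 2 and 3 and at 1351.25, 1218.13 and 1301.93 in DlaeA. H2BK131A gave 557.02, 423.51 and 437.34, and H2BK123A 55.46, 37.02 and 72.72. The order was therefore DlaeA, H2BK131A, WT, H2BK123A, again with no overlap between neighbours, although the lowest H2BK131A library and WT 2 lay close together. The means were 1290.4 ± 67.3 in DlaeA, 473 ± 73.4 in H2BK131A, 197 ± 164 in WT and 55.1 ± 17.9 in H2BK123A (SD, n = 3 each). By rank the gene was number 57 of 9931 in DlaeA and number 489 in WT. The DlaeA mean was 6.56 times the WT mean and the H2BK131A mean 2.4 times it, while the WT mean was 3.57 times that of H2BK123A. The differences from WT were 3.02 ± 0.43, 1.56 ± 0.43 and -1.56 ± 0.43 in DlaeA, H2BK131A and H2BK123A (log2 scale, SE). All 3 comparisons use the same WT libraries, so a WT library that stands apart moves all of them at once.

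**Figure D1:**
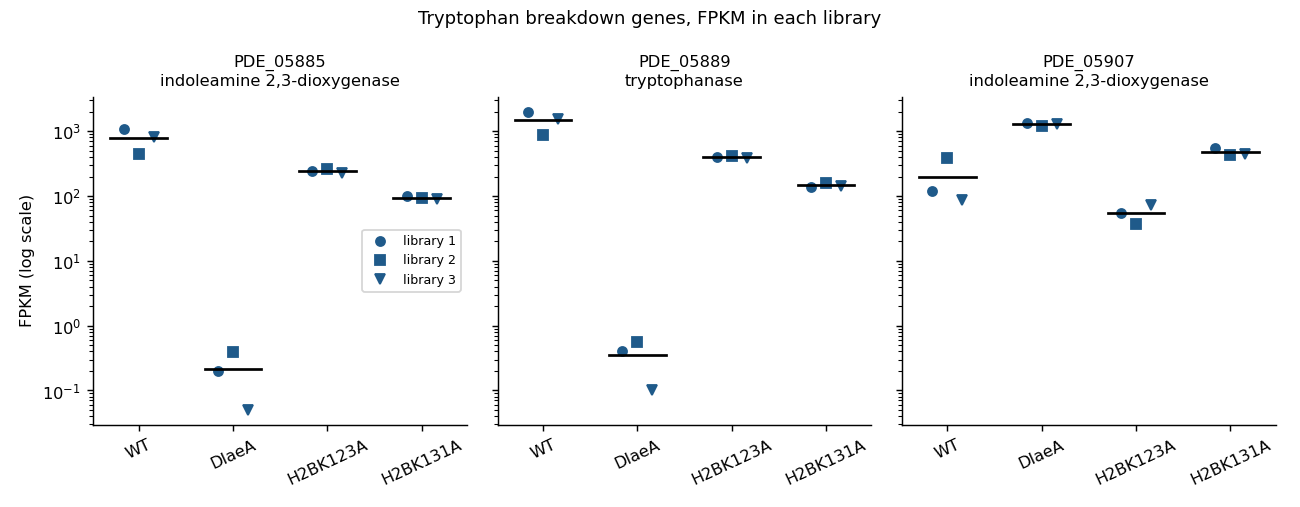
FPKM of the 3 tryptophan-degrading genes in each of the 12 libraries, on a log axis, with points for libraries and bars for strain means. PDE_05885 and PDE_05889 are highest in WT and under 1 FPKM in DlaeA, and PDE_05907 is highest in DlaeA and lowest in H2BK123A.

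Against this must be set how common such differences were. Of the 9431 genes tested, the 3 DlaeA libraries did not overlap the WT libraries in 70.3%, those of H2BK123A in 52.7% and those of H2BK131A in 70.5%. No such share was computed for pairs of mutants or for an order of all strains. The orders without overlap given above therefore have no background beside them and are a description only. All 3 tryptophan genes were without overlap in all of the comparisons, and nothing is read from that count because the genes were picked with these values known. On the log2 scale the median difference over all tested genes was 0.27 in DlaeA, 0.18 in H2BK123A and 0.13 in H2BK131A. Median-ratio scaling of the libraries moved these to 0.02, -0.02 and -0.03. The differences of the 3 genes kept their direction under it and under quantile scaling.

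WT 2 deviated from WT 1 and WT 3 in each of the 3 genes. For PDE_05885 it held 437 FPKM against a mean of 942 in the other WT libraries, a ratio of 0.464, and for PDE_05889 the ratio was 0.503. PDE_05907 was at 385 FPKM in WT 2 against 102, a ratio of 3.76. In each gene WT 2 thus lay on the side of DlaeA and equally on that of H2BK131A. For PDE_05885 and PDE_05889 this was the side of H2BK123A as well. Without WT 2 the difference of PDE_05907 in H2BK123A shrank to -0.92 from -1.56, while in DlaeA it grew to 3.66 from 3.02 and in H2BK131A to 2.20 from 1.56. The WT level of PDE_05907 therefore depends on this library, and its coefficient of variation in WT was 83.4%.

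The labels name mycelia, and 6 genes described as markers of asexual sporulation were read as a check on the make-up of the samples. They were the BrlA zinc finger regulators PDE_00087 and PDE_00079, the Myb-like regulator FlbD (PDE_03008), the spore wall protein DIT1 (PDE_01188) and the scytalone dehydratases PDE_04496 and PDE_09236, which act in melanin synthesis. Their summed FPKM was 4902.2 in WT 1, 573 in WT 2 and 4187.1 in WT 3. In DlaeA it lay between 1298.5 and 1457.7, in H2BK123A between 987 and 1186 and in H2BK131A between 102 and 545. The sum was not carried by the same genes in all strains, so it is no common marker level. In WT and H2BK123A it was mainly PDE_09236, with means of 2908.2 ± 2159.9 and 957 ± 77.5 FPKM. In DlaeA, where PDE_09236 was at 1.13 ± 0.909, it was PDE_04496 (553 ± 100), PDE_00087 (435 ± 20.2) and PDE_03008 (371 ± 5.19). In H2BK131A it was almost only PDE_01188, at 350 ± 230 against 182 ± 186 in WT, which was not called (1.87, limma, adjusted p = 0.186). None of the 6 was at 0 in every library of a strain. In DlaeA 4 rose and 2 fell, beside 69.9% of all genes called. In H2BK131A none rose and 4 fell, which is 66.7% called against 70.8% of all genes, and 1 rose without WT 1. In H2BK123A none of the 6 was called with limma, against 46.6% of all genes, and 1 had an unadjusted p under 0.05. There 2 fell without WT 1, 2 without WT 2, and 1 under each of median-ratio and quantile scaling. WT 2 was the lowest WT library in PDE_09236 (439.71 FPKM) and in PDE_01188 (5.93). The other markers are not given here by WT library, so WT 2 is not read as low in sporulation markers as a whole. The part of such cells in the results was not tested. In RNA from whole mycelium, fewer cells of a type and less RNA per cell cannot be told apart.

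The table holds 2 further genes described as indoleamine 2,3-dioxygenase, PDE_02071 and PDE_02454, and no further tryptophanase. PDE_02454 fell in each mutant. Its FPKM was 672.69, 138.64 and 404.51 in WT 1, 2 and 3, against 31.92, 31.06 and 25.79 in DlaeA. In H2BK123A it was 119.36, 112.54 and 91.08 and in H2BK131A 75.82, 63.32 and 62.33, so all libraries of the mutants were below WT 2, the lowest WT library. The log2 difference was -3.47 ± 0.41 in DlaeA (limma, adjusted p = 1.62e-05), -1.64 ± 0.41 in H2BK123A (adjusted p = 0.00718) and -2.31 ± 0.41 in H2BK131A (adjusted p = 0.000342).

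PDE_02071 was the least expressed of the 4 dioxygenase genes in WT, at 55.81, 35.18 and 63.02 FPKM. It rose to 119 ± 4.37 in DlaeA (1.24 ± 0.17, limma, adjusted p = 5e-05) and to 185 ± 10.1 in H2BK131A (1.87 ± 0.17, adjusted p = 1.39e-06). In H2BK123A it was at 51.5 ± 3.7 against 51.3 ± 14.4 in WT and was not called (0.04 ± 0.17, adjusted p = 0.857). The sign of that last difference turned under median-ratio scaling, where it was -0.17.

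The summed FPKM of the 4 dioxygenase genes differed far less between WT and DlaeA than the single genes did. WT 1, 2 and 3 summed to 1921.5, 996 and 1363.2, and the DlaeA libraries to 1501.4, 1373.8 and 1443.6. The means were 1426.9 ± 466 and 1439.6 ± 63.9 (SD, n = 3 each), and the libraries of these strains overlapped. H2BK123A summed to 456 ± 17.0 and H2BK131A to 819 ± 77.9, both below every WT and DlaeA library. The summed value adds genes of unlike length on the deposited per-kilobase scale.

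Which gene made up that sum differed between strains. PDE_05885 gave 55.9%, 43.9% and 59.4% of it in WT 1, 2 and 3, and at most 0.0284% in DlaeA. In H2BK123A its share was between 51.2% and 56.4%, within the WT range, and in H2BK131A between 11.1% and 12.2%. PDE_05907 gave 6.20% and 6.29% in WT 1 and WT 3 but 38.7% in WT 2. It gave 88.7% to 90.2% in DlaeA, 55.3% to 61.4% in H2BK131A and 8.13% to 16.6% in H2BK123A. These shares include genes picked with their values known and are a description.

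**Figure D2:**
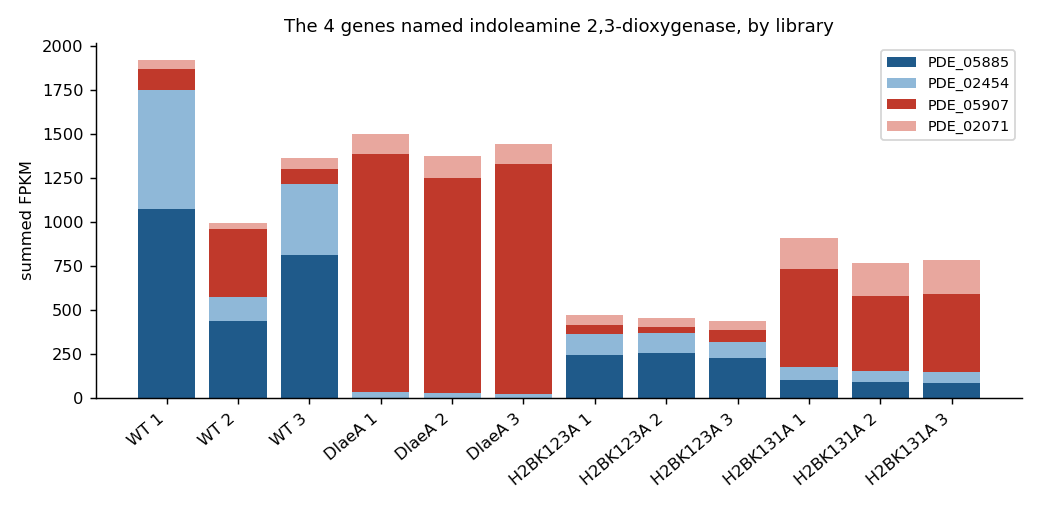
FPKM of the 4 genes described as indoleamine 2,3-dioxygenase, stacked for each of the 12 libraries on a linear axis starting at 0. PDE_05885 holds the largest part in WT and H2BK123A, and PDE_05907 in DlaeA and H2BK131A. In the shares of these genes WT 2 lies between the other WT libraries and H2BK131A, and likewise between them and DlaeA.

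The identifiers of PDE_05885 and PDE_05889 are near each other, and PDE_05907 is not far beyond. The locus numbers from PDE_05875 to PDE_05917, which reach 10 beyond the outer genes, hold 39 further genes in the table, of which 38 were tested. Genomic coordinates of this strain were not used here, so nearness is read from the numbers only, and PDE_05887 is not analysed here. In DlaeA 10 of the 38 rose, 14 fell and 14 were not called, which is 63.2% called against 69.9% of all genes, with a median log2 difference of -0.14 against 0.27. In H2BK123A 10 rose, 6 fell and 22 were not called, 42.1% against 46.6% of all genes, with medians of 0.09 and 0.18. In H2BK131A 9 rose, 16 fell and 13 were not called, 65.8% against 70.8%, with medians of -0.23 and 0.13. The shares called were thus close to the background, and the counts moved with the scaling: under median-ratio scaling they were 7 higher and 19 lower in DlaeA, 9 and 8 in H2BK123A, and 9 and 21 in H2BK131A. The 6 falls in H2BK123A were 2 with this strain and WT fitted alone, 2 without H2BK123A 1, and 3 without H2BK123A 2 or without WT 3.

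Within this stretch the 3 genes with the largest falls in DlaeA were PDE_05886 and PDE_05888, which lie between PDE_05885 and PDE_05889 by number, and PDE_05892, which lies a little beyond them. PDE_05886, whose KEGG names are both of cytochrome P450 enzymes, a family of haem oxygenases, was at 1066.27, 829.07 and 1003.69 FPKM in WT and at 2.02, 2.56 and 1.91 in DlaeA. PDE_05888, which has no description, was at 1188.58, 832.51 and 936.24 in WT and at 0.87, 1.63 and 0.34 in DlaeA. PDE_05892, also without a description, was at 651.20, 162.45 and 358.06 in WT and at 0.21, 0.42 and 0.62 in DlaeA. No DlaeA library came near a WT library in any of them. Their log2 differences in DlaeA were -8.25 ± 0.13 (limma, adjusted p = 7.75e-13), -9.02 ± 0.21 (adjusted p = 1.35e-11) and -7.90 ± 0.41 (adjusted p = 1.34e-08).

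The same 3 genes were also lower in the H2B mutants, by less. PDE_05886 was at 715 ± 10.7 FPKM in H2BK123A and 197 ± 27.0 in H2BK131A, against 966 ± 123 in WT. Its fall of -0.43 ± 0.13 in H2BK123A (limma, adjusted p = 0.0191) was no longer called without WT 1 (adjusted p = 0.062), without WT 3 (0.0598), without H2BK123A 1 (0.0549) or with these strains fitted alone (0.0762), and that of -2.29 ± 0.13 in H2BK131A was called (adjusted p = 3.03e-08). PDE_05888 was at 464 ± 4.68 in H2BK123A and 151 ± 14.0 in H2BK131A, against 986 ± 183 in WT (-1.07 ± 0.21, adjusted p = 0.00153, and -2.69 ± 0.21, adjusted p = 3.21e-07). PDE_05886 and PDE_05888 therefore kept the order WT, H2BK123A, H2BK131A, DlaeA of the tryptophan genes they lie beside. PDE_05892 did not follow that order between the H2B mutants, whose libraries overlapped, with 65.0 ± 14.8 in H2BK123A and 90.2 ± 31.9 in H2BK131A (-2.38 ± 0.41, adjusted p = 0.000731, and -1.94 ± 0.41, adjusted p = 0.00109).

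Next to these, PDE_05890, PDE_05891 and PDE_05894 fell in DlaeA from lower levels. They lie outside the rule for naming genes and were picked after their values were seen, so they do not outline a block. PDE_05893, which lies between PDE_05892 and PDE_05894 by number, enters the counts above only. PDE_05890, described as a chitinase, an enzyme that cuts chitin, went from 9.68 ± 0.979 FPKM in WT to 4.19 ± 1.58 (-1.08 ± 0.20, limma, adjusted p = 0.000528). PDE_05891 went from 24.0 ± 3.31 to 6.27 ± 0.304 (-1.77 ± 0.11, adjusted p = 7.55e-08) and PDE_05894 from 10.8 ± 3.44 to 1.01 ± 0.443 (-2.55 ± 0.25, adjusted p = 3.81e-06). None of the 3 was called in H2BK123A or H2BK131A. Their smallest adjusted p there was 0.152, and the difference between the comparisons was not tested.

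Other genes of the stretch moved in other ways. PDE_05880, described as nitrite reductase, which acts in nitrate assimilation, rose from 96.3 ± 34.6 FPKM in WT to 397 ± 26.7 in H2BK123A (2.09 ± 0.20, limma, adjusted p = 1.78e-05) and to 583 ± 13.7 in H2BK131A (2.64 ± 0.20, adjusted p = 3.23e-07), and was not called in DlaeA (0.16 ± 0.20, adjusted p = 0.49). The very abundant PDE_05881, with no description, fell from 7869.3 ± 324 to 1627.3 ± 257 in DlaeA (-2.28 ± 0.20, adjusted p = 1.52e-06) and to 863 ± 149 in H2BK131A (-3.20 ± 0.20, adjusted p = 7.3e-08). PDE_05882, also undescribed, fell from 5857.5 ± 770 to 1128.4 ± 22.8 in DlaeA (-2.37 ± 0.20, adjusted p = 8.65e-07) and to 700 ± 138 in H2BK131A (-3.07 ± 0.20, adjusted p = 7.89e-08). PDE_05900 fell in H2BK131A, from 1981.8 ± 547 to 258 ± 60.4 (-2.93 ± 0.25, adjusted p = 9.17e-07). The other rises named by the rule were smaller, with 1.12 for PDE_05899, 1.02 for the alcohol dehydrogenase PDE_05897 and 0.76 for PDE_05915 in DlaeA. In H2BK123A PDE_05911 rose by 1.48 and PDE_05897 by 1.19, and in H2BK131A PDE_05913 rose by 1.46 and PDE_05896 by 1.38.

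The direct neighbours of PDE_05907 by number were less expressed and changed by smaller steps. PDE_05906, described as an F-box protein, was at 11.3 ± 2.51 FPKM in WT, 13.6 ± 2.54 in DlaeA, 13.4 ± 0.752 in H2BK123A and 6.94 ± 0.908 in H2BK131A, where it fell while PDE_05907 was higher (-0.62 ± 0.16, limma, adjusted p = 0.00461). PDE_05908, described as PET117, a protein of cytochrome oxidase assembly, was at 36.3 ± 4.07 in WT and 44.8 ± 3.18 in DlaeA. It rose in H2BK131A to 74.3 ± 4.24 (1.02 ± 0.12, adjusted p = 1.33e-05). In DlaeA its difference of 0.30 ± 0.12 (adjusted p = 0.0443) was not called under median-ratio scaling (0.02, adjusted p = 0.862), without WT 3 (adjusted p = 0.158), without WT 2 (0.0661) or without DlaeA 1 (0.135), 2 (0.0593) or 3 (0.0704). Pearson's r with PDE_05907 over the 12 libraries was -0.084 for PDE_05906 and 0.49 for PDE_05908.

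**Figure D3:**
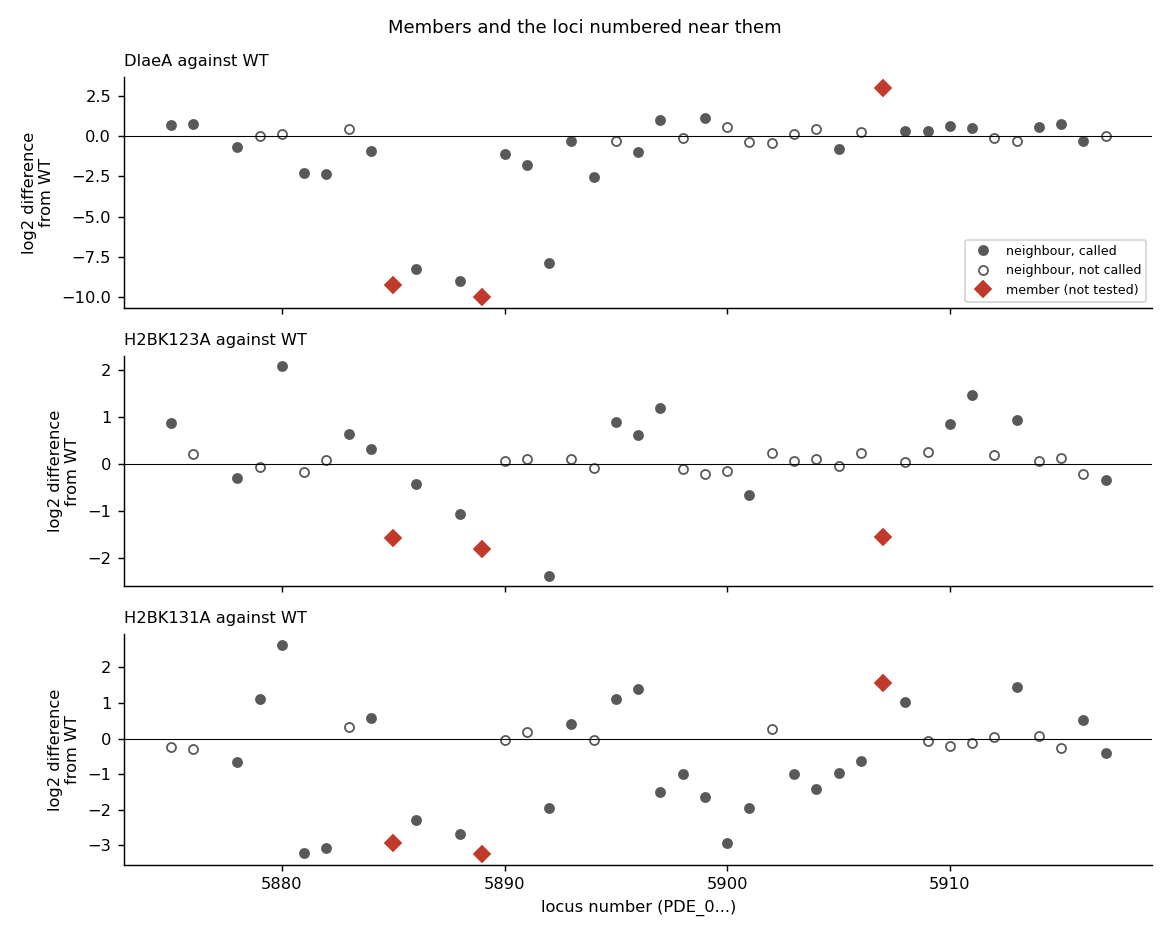
Log2 difference from WT of the genes numbered PDE_05875 to PDE_05917 in the 3 mutants, by locus number, without error bars. Diamonds are the 3 tryptophan-degrading genes, and circles are the other genes, filled where called. PDE_05885, PDE_05886, PDE_05888, PDE_05889 and PDE_05892 lie below -7 in DlaeA and below 0 in both H2B mutants. PDE_05907 lies well above the genes beside it in DlaeA, while in H2BK131A its neighbour PDE_05908 is higher than in WT too.

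The likeness of patterns was measured by Pearson's r of log2(FPKM + 1) over the 12 libraries, for all tested genes. Most of the variation behind such an r lies between strains, above all between DlaeA and the rest, so it is given as a description. For PDE_05885 the most similar gene was the tryptophanase PDE_05889 (r = 0.9997), followed by PDE_05888 (0.9968). The next were PDE_07218 (0.9959), whose KEGG and Nr descriptions differ, the cyanide hydratase PDE_05310 (0.9954) and the phosphate transporter PDE_02513 (0.9950). PDE_05889 had PDE_05885 and the same other 4 genes as its most similar. Among the remaining neighbours PDE_05886 was number 10 by likeness to PDE_05885 (r = 0.992), PDE_05892 number 40 (0.975), PDE_05891 number 229 (0.916) and PDE_05894 number 249 (0.912).

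PDE_05310, which as cyanide hydratase turns cyanide into formamide, was at 85.85, 70.19 and 74.16 FPKM in WT and at 0.23, 0.23 and 0.14 in DlaeA. PDE_02513 was at 518.30, 275.38 and 494.33 in WT and at 0.42, 0.48 and 0.41 in DlaeA. In H2BK123A these genes were at 35.1 ± 7.3 and 149 ± 6.49, and in H2BK131A at 18.0 ± 3.31 and 108 ± 4.83. Their locus numbers lie outside the stretch. Their strain order was the same as that of PDE_05885, but they were picked for likeness to it over these same libraries. The shared order is therefore no separate result.

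PDE_05907 had r = -0.7994 with PDE_05885 and r = -0.7948 with PDE_05889. Its most similar genes were PDE_09501, described as queuine tRNA-ribosyltransferase (0.9713), the zinc transporter PDE_04645 (0.9583), the RNA helicase PDE_07747 (0.9575), the coatomer subunit PDE_04330 (0.9531) and PDE_09724, which has no description (0.9517). These genes varied over much narrower ranges. PDE_09501, for example, had means between 9.44 FPKM in H2BK123A and 18.8 in DlaeA. Which genes were most similar depended on the measure. With Spearman's rank correlation 1 of the 5 genes named was again among the first 5 for PDE_05885, 1 for PDE_05889 and none for PDE_05907.

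Beyond these genes, 168 genes on 6 lists of tryptophan-related functions were read by their descriptions, of which 165 were tested. Many of the descriptions are general enzyme or transporter names without mention of tryptophan, so the counts are not those of a tryptophan pathway. In DlaeA 73 rose, 54 fell and 38 were not called, 77.0% called against 69.9% of all genes. In H2BK123A 62 rose, 34 fell and 69 were not called, 58.2% against 46.6%. In H2BK131A 63 rose, 60 fell and 42 were not called, 74.5% against 70.8%. The median log2 differences were 0.24, 0.12 and 0.05, close to the 0.27, 0.18 and 0.13 of all genes. Among all genes 46.3% rose and 23.6% fell in DlaeA, 33.5% and 13.1% in H2BK123A, and 40.6% and 30.2% in H2BK131A. The split moved with the scaling: under median-ratio scaling 60 rose and 59 fell in DlaeA, 48 and 50 in H2BK123A, and 56 and 69 in H2BK131A.

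Several genes of later steps of the kynurenine route were higher in DlaeA, where PDE_05885 was near 0, while 5 of the 21 tested genes on the kynurenine and NAD list fell there. Kynurenine formamidase removes the formyl group left by the dioxygenase, and its gene PDE_07101 rose in DlaeA from 30.5 ± 2.2 to 58.8 ± 3.33 FPKM (0.93 ± 0.10, limma, adjusted p = 7.92e-06). PDE_05424, for kynurenine 3-monooxygenase, which hydroxylates kynurenine, was at 12.31, 11.46 and 10.87 in WT. It rose to 17.7 ± 1.58 in DlaeA (0.57 ± 0.10, adjusted p = 0.000288) and to 42.57, 46.24 and 46.11 in H2BK131A (1.87 ± 0.10, adjusted p = 1.62e-08). PDE_06295, for 3-hydroxyanthranilate 3,4-dioxygenase, which opens the ring on the way to NAD, rose in all 3 mutants, from 42.2 ± 7.18 to 110 ± 17.8 in DlaeA (1.36 ± 0.16, adjusted p = 1.44e-05), 67.0 ± 7.41 in H2BK123A (0.66 ± 0.16, adjusted p = 0.00565) and 101 ± 15.2 in H2BK131A (1.25 ± 0.16, adjusted p = 2.36e-05). These route genes were chosen for their place in the route after values had been seen. Relative to the median of all genes, kynurenine 3-monooxygenase in H2BK123A (0.48 ± 0.10, adjusted p = 0.0024) was not called under median-ratio scaling (0.27, adjusted p = 0.0566). Nor was the formamidase then called in H2BK131A (0.19, adjusted p = 0.131, against 0.36 and 0.0068), whereas its -0.16 in H2BK123A (adjusted p = 0.213) became a call of -0.37 (adjusted p = 0.0159).

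The kynureninases, which cut kynurenine to anthranilate or its hydroxylated form to 3-hydroxyanthranilate, are PDE_03800 and PDE_02455. PDE_03800 rose in DlaeA (38.9 ± 6.0 to 71.6 ± 4.27 FPKM, 0.87 ± 0.13, limma, adjusted p = 7.85e-05) and in H2BK123A (56.8 ± 2.33, 0.54 ± 0.13, adjusted p = 0.00465) and fell in H2BK131A (28.6 ± 4.05, -0.43 ± 0.13, adjusted p = 0.00932). PDE_02455, whose locus number follows that of the dioxygenase PDE_02454, was at 379.54, 148.90 and 254.69 in WT and was called in none of the mutants (adjusted p = 0.20 in DlaeA, 0.092 in H2BK123A and 0.376 in H2BK131A). Without WT 2 it was a called fall of -0.74 in DlaeA (adjusted p = 0.00215) and of -0.92 in H2BK123A (adjusted p = 0.000869). In H2BK123A it was also called with WT 2 kept, at -0.78 under median-ratio scaling (adjusted p = 0.0431) and -0.65 under quantile scaling (adjusted p = 0.049). In H2BK131A it was 0.26, and 0.58 without WT 1 (adjusted p = 0.0207).

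Over the kynurenine and NAD list as a whole, 11 of 21 tested genes rose and 5 fell in DlaeA. In H2BK123A 9 rose and 2 fell, and in H2BK131A 7 rose and 7 fell. The shares called were 76.2%, 52.4% and 66.7%, against 69.9%, 46.6% and 70.8% of all genes. Under median-ratio scaling the H2BK123A split was 5 higher and 6 lower, and the 7 rises in H2BK131A were 4. The nicotinamidase PDE_05332, which frees nicotinate from nicotinamide, rose in DlaeA from 47.5 ± 10.5 to 183 ± 3.11 FPKM (1.95 ± 0.14, limma, adjusted p = 2.42e-07). The kynurenine aminotransferase gene PDE_08465, whose enzyme leads kynurenine to kynurenate, fell in DlaeA from 181 ± 43.7 to 44.8 ± 5.75 (-1.97 ± 0.30, adjusted p = 0.00011). Another so described, PDE_09189, rose in H2BK131A from 0.33 ± 0.0781 to 5.34 ± 1.02 (2.24 ± 0.14, adjusted p = 5.07e-08).

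**Figure D4:**
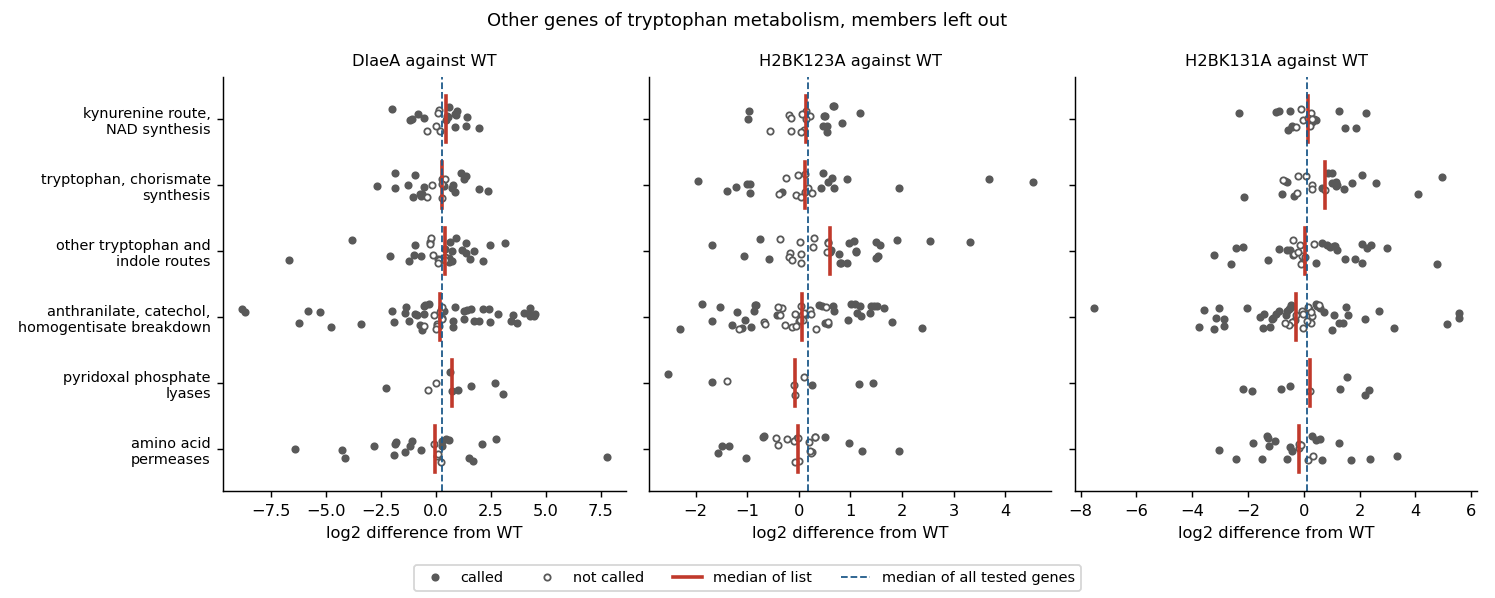
Log2 difference from WT of the tested genes on the 6 tryptophan-related lists, 1 point per gene, for DlaeA, H2BK123A and H2BK131A. The 3 tryptophan-degrading genes are left out of the figure. In DlaeA the listed genes reach down to -8.81, a value that depends on the added constant of 1.

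Tryptophan synthesis is the reverse side of its breakdown, and 25 tested genes were listed for it and for the chorismate route that feeds it. In DlaeA 10 rose and 10 fell, in H2BK123A 9 rose and 7 fell, and in H2BK131A 13 rose and 5 fell. Called were thus 80.0%, 64.0% and 72.0%, against 69.9%, 46.6% and 70.8% of all genes. The 10 rises in DlaeA were 6 under median-ratio scaling, 6 without WT 3 and 6 without DlaeA 1 or DlaeA 2. Several genes are described as tryptophan synthase, the enzyme of the last step of synthesis, or as its beta chain. Only those with the list's largest rise in H2BK131A and in H2BK123A are given here, and the others enter the counts alone. PDE_07951, a beta chain gene, was at 20.95, 19.78 and 15.22 FPKM in WT and at 514.19, 698.37 and 611.74 in H2BK131A (4.96 ± 0.19, limma, adjusted p = 1.82e-09). It rose to 76.0 ± 8.55 in DlaeA (1.98 ± 0.19, adjusted p = 2.55e-06) and to 75.1 ± 18.4 in H2BK123A (1.94 ± 0.19, adjusted p = 1.78e-05). All libraries of the mutants were above those of WT, with H2BK131A far above the others.

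Another of the genes described as tryptophan synthase, PDE_02771, was near 0 in WT, at 0.15, 0.16 and 0.20 FPKM. It was at 51.19, 19.90 and 17.36 in H2BK123A and 15.26, 25.03 and 17.13 in H2BK131A. It rose by 4.54 ± 0.32 in H2BK123A (limma, adjusted p = 2.34e-06) and by 4.08 ± 0.32 in H2BK131A (adjusted p = 3.98e-07), and the libraries of these mutants overlapped. Several genes are described as the synthase of the first step of the chorismate route, and of these only PDE_00873 is given here. It had the list's largest fall in DlaeA (-2.69 ± 0.45, limma, adjusted p = 0.000237) and in H2BK123A (-1.95 ± 0.45, adjusted p = 0.00449). In WT it was at 429.03, 84.51 and 317.80, so WT 2 was low in it as well.

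The list for other routes from tryptophan and indole held 33 tested genes, most of them described only as amidases, nitrilases or amine oxidases. Such names do not show that an enzyme acts on tryptophan or indole. In DlaeA 15 of these genes rose and 7 fell. In H2BK123A 18 rose and 4 fell, and in H2BK131A 15 rose and 9 fell. The shares called were 66.7%, 66.7% and 72.7%, against 69.9%, 46.6% and 70.8% of all genes. The 4 falls in H2BK123A were 8 under median-ratio scaling. The aromatic amino acid aminotransferase PDE_09759, an enzyme type that turns tryptophan, tyrosine and phenylalanine into their keto acids, was at 649.66, 197.35 and 495.72 FPKM in WT. It was at 2.75, 2.74 and 3.45 in DlaeA (-6.66 ± 0.33, limma, adjusted p = 1.05e-08) and at 124 ± 23.3 in H2BK123A (-1.69 ± 0.33, adjusted p = 0.00175). In H2BK131A it was at 377 ± 33.4 and was not called (adjusted p = 0.825). The amidase gene PDE_05091 rose from 35.4 ± 2.26 to 213 ± 45.1 in H2BK123A (2.54 ± 0.18, adjusted p = 2.28e-06) and to 994 ± 205 in H2BK131A (4.76 ± 0.18, adjusted p = 1.67e-09). The nitrilase PDE_07435, from a family that hydrolyses nitriles, fell from 67.8 ± 11.8 to 6.47 ± 1.03 in H2BK131A (-3.20 ± 0.13, adjusted p = 2.61e-09).

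Anthranilate, catechol and homogentisate are aromatic rings opened by further dioxygenases, and 54 genes of that list were tested. Most of them are described as salicylate hydroxylase, phenol 2-monooxygenase or benzoate 4-monooxygenase. These names do not show a part in tryptophan breakdown. In DlaeA 23 rose and 20 fell, in H2BK123A 19 rose and 13 fell, and in H2BK131A 16 rose and 24 fell. That is 79.6%, 59.3% and 74.1% called, against 69.9%, 46.6% and 70.8% of all genes. Several genes are described as 4-hydroxyphenylpyruvate dioxygenase, which makes homogentisate in tyrosine breakdown. Only PDE_09761 is given here, and the others, PDE_08904 among them, enter the counts alone, so the step as a whole is not read. PDE_09761 was at 4981.84, 2097.55 and 3929.24 FPKM in WT and at 10.95, 6.72 and 5.47 in DlaeA (-8.68 ± 0.30, limma, adjusted p = 4.64e-10). It also fell in H2BK123A, to 704 ± 140 (-2.31 ± 0.30, adjusted p = 0.000133), and in H2BK131A, to 1290.7 ± 61.8 (-1.42 ± 0.30, adjusted p = 0.00124). Its locus number is near that of PDE_09759, and WT 2 was the lowest WT library in both.

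Genes described for the steps after homogentisate are PDE_08906, PDE_08907, PDE_08908 and PDE_09882, and the first 3 include the largest rises of the list. Homogentisate 1,2-dioxygenase PDE_08906 was at 39.21, 84.22 and 35.27 FPKM in WT. It rose to 810 ± 79.8 in DlaeA (4.02 ± 0.29, limma, adjusted p = 2.19e-07) and to 2418.2 ± 580 in H2BK131A (5.57 ± 0.29, adjusted p = 1.35e-08). Maleylacetoacetate isomerase PDE_08908 rose from 30.5 ± 16.7 to 657 ± 5.33 in DlaeA (4.51 ± 0.31, adjusted p = 1.46e-07), and fumarylacetoacetase PDE_08907 from 92.0 ± 52.0 to 4040.7 ± 1007.7 in H2BK131A (5.55 ± 0.33, adjusted p = 4.13e-08). In H2BK123A PDE_08906 rose by 1.81 ± 0.29 (adjusted p = 0.000445) and PDE_08907 by 1.65 ± 0.33 (adjusted p = 0.00195). The difference of PDE_08908 there, 1.09 ± 0.31 (adjusted p = 0.0127), was not called with H2BK123A and WT fitted alone (0.0612), without WT 3 (0.0573) or without H2BK123A 3 (0.0576). In WT these 3 genes were highest in WT 2. The other gene described as fumarylacetoacetase, PDE_09882, was not called in DlaeA (0.18) or H2BK123A (0.11) and fell in H2BK131A (-0.59). The gene PDE_09229, described as salicylate hydroxylase, which makes catechol, fell from 2239.13, 236.23 and 2176.78 FPKM in WT to 1.37 ± 0.457 in DlaeA (-8.81 ± 0.65, adjusted p = 2.87e-07) and 4.71 ± 0.577 in H2BK131A (-7.53 ± 0.65, adjusted p = 8.32e-07).

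Tryptophanase belongs to the pyridoxal phosphate enzymes, and 9 other lyases and synthases of that kind acting on amino acids were tested. In DlaeA 6 rose and 1 fell, in H2BK123A 3 rose and 2 fell, and in H2BK131A 4 rose and 4 fell. That is 77.8%, 55.6% and 88.9% called, against 69.9%, 46.6% and 70.8% of all genes. Rises also outnumbered falls among all genes in DlaeA, with 46.3% against 23.6%. The single fall in DlaeA became 2 without WT 2 and under median-ratio scaling, which also made the 2 falls in H2BK123A 4. The 3 rises in H2BK123A were 1 with this strain and WT fitted alone. The threonine aldolase PDE_08440, which splits threonine to glycine and acetaldehyde, rose in DlaeA from 27.2 ± 7.76 to 178 ± 43.0 FPKM (2.68 ± 0.26, limma, adjusted p = 2.78e-06). It fell in H2BK123A to 7.78 ± 2.74 (-1.69 ± 0.26, adjusted p = 0.000352) and in H2BK131A to 6.70 ± 1.34 (-1.85 ± 0.26, adjusted p = 4.75e-05).

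Amino acid permeases carry tryptophan and other amino acids into the cell, and 24 were tested. In DlaeA 9 rose and 11 fell, in H2BK123A 5 rose and 6 fell, and in H2BK131A 8 rose and 11 fell. Called were thus 83.3%, 45.8% and 79.2%, against 69.9%, 46.6% and 70.8% of all genes. The rises in H2BK123A were 3 without H2BK123A 1, without WT 3 or under median-ratio scaling, and those in H2BK131A were 5 without H2BK131A 1 or without WT 3. PDE_00845 rose in DlaeA from 11.9 ± 2.83 to 2791.2 ± 251 FPKM (7.78 ± 0.18, limma, adjusted p = 1.62e-11), while PDE_00830 fell from 123 ± 50.4 to 0.41 ± 0.231 (-6.37 ± 0.33, adjusted p = 1.45e-08). PDE_01802 fell from 381 ± 75.3 in WT to 19.9 ± 8.68 in DlaeA (-4.25 ± 0.26, adjusted p = 5.29e-08) and to 71.6 ± 18.4 in H2BK131A (-2.41 ± 0.26, adjusted p = 5.3e-06). PDE_04259 rose in H2BK131A from 0.727 ± 0.24 to 16.4 ± 2.22 (3.33 ± 0.14, adjusted p = 3.8e-09). Which amino acids these permeases carry is not given by their descriptions.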

How the data were processed

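The labels' protocols describe oligo(dT)-primed cDNA cut with NlaIII and MmeI for tag sequencing. The authors deposited 1 table with an FPKM value of 2 decimals per gene and library, per the file headers, with GO, KEGG and Nr descriptions. The sources used here give no aligner, counting tool, genome build or gene models. FPKM holds no read depth, so counting intervals were not computed.

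From the deposited FPKM, log2(FPKM + 1) was fitted for all genes with limma 3.58.1 in R 4.3.3 (limma-trend, two-sided). The model had strain alone, fitted on the 12 libraries together, with 8 residual degrees of freedom. A gene was tested where 3 or more libraries reached an FPKM of 1, which 9431 of 9931 did, and all 3 tryptophan genes passed this filter. P-values were Benjamini-Hochberg adjusted over all tested genes within each comparison of a mutant with WT, and calls were made at an adjusted p under 0.05. No p is given for the 3 genes. The procedure was run on simulated data in which few genes changed and each gene had the same spread in every strain. In the real data many genes were called and the spread was larger in WT. That run therefore does not give the error of the calls made here.

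The 3 genes and the lists were chosen with earlier results of these data known. Lists are search patterns on KEGG or Nr descriptions. Genes with more than 1 KEGG name, 830 in the table, were left out of them unless their Nr description matched. Neighbouring loci were taken by number, whatever their names. Named genes were the other genes described as either enzyme, the 2 largest called rises and falls per list and comparison (3 among neighbouring loci), of which some are printed, the 5 genes most like each of the 3 genes, the sporulation markers and the loci that check the labels. The core kynurenine route genes, PDE_09882, PDE_05890, PDE_05891, PDE_05894 and the direct neighbours of PDE_05907 lie outside that rule. They were chosen after their values were seen. The RefSeq gene table provided is of another strain's assembly and matched none of the 3 genes, so no sequence or coordinate is given. Alternatives were other added constants, filters, scalings and fits, and leaving out each library.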

Additional observations from a re-analysis of the deposited data

How the results depend on the processing

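No difference of PDE_05885, PDE_05889 or PDE_05907 from WT changed direction under any alternative. The near-zero DlaeA values made the constant added before taking logs matter: with 0.1 the DlaeA differences were -11.34 for PDE_05885 and -11.76 for PDE_05889, and with 10 they were -6.17 and -7.09. Leaving out 1 library at a time gave -9.60 to -8.95, -1.95 to -1.30 and -3.30 to -2.65 for PDE_05885 in DlaeA, H2BK123A and H2BK131A, and 2.58 to 3.66, -1.99 to -0.92 and 1.13 to 2.20 for PDE_05907. The largest sizes for PDE_05885, and the 3.66, -0.92 and 2.20 of PDE_05907, were those without WT 2. For PDE_05889 the ranges were -10.36 to -9.77, -2.12 to -1.54 and -3.58 to -2.99. Of the 5 genes most like each, Spearman's correlation shared 1 for PDE_05885, 1 for PDE_05889 and 0 for PDE_05907, and a constant of 10 shared 3 for PDE_05889. Small differences turned sign: PDE_02071 in H2BK123A was -0.17 under median-ratio scaling, -0.12 under quantile scaling and -0.20 to 0.21 when a library was left out. PDE_02455 in H2BK131A was -0.05 with quantile scaling and -0.09 (without WT 2) to 0.58 when a library was left out. The cause was not tested. Calls over all genes were 6596, 4399 and 6675, with ranges of 5843 to 6926, 3342 to 5234 and 6005 to 6868 over the alternatives. Of calls over all genes, 66.3%, 71.8% and 57.4% were higher, and 50.5%, 49.5% and 48.4% with median-ratio scaling. Listing genes with several KEGG names (chosen after seeing the data) gave 172, 132 and 174 called of 232.

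No pairing of the libraries by replicate number was seen over all genes. The correlation of same-numbered deviations exceeded 0.1 in 3 of 18 pairs (range -0.224 to 0.211). Of 36 pairings of a library with another strain, 10 were closest to their own number, and no library was so in all 3 other strains. Whether the numbers mark a shared batch cannot be told from this. With the replicate block the calls were 6489, 4195 and 6567.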
